A study of Mus musculus with 8 samples.

Results

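Chemokine ligand genes were followed in bone marrow neutrophils of wild type (WT) and Padi4 knockout (Padi4 KO) mice with and without R848, a synthetic agonist of TLR7. The 10 genes Ccl2, Ccl3, Ccl4, Ccl6, Ccl9, Cxcl1, Cxcl2, Cxcl3, Cxcl10 and Cxcl16 were taken by symbol from a count table of 24421 genes, and each had 1 row in it. Padi4 encodes a calcium-dependent deiminase that citrullinates histones and other proteins. The mice were 8 weeks old and female on the C57BL/6 background, and the knockout removed exon 1 of Padi4 in the germ line, so cells other than neutrophils lacked it as well. RNA was sequenced from 4 groups of 2 libraries, which were WT and Padi4 KO neutrophils left unstimulated (Nostim) or given R848 at 1 µg/ml for 6 h. For the unstimulated cells the labels give 0 h and the study's methods give the same culture time as for R848. Under the labels, the effects of R848 and of time in culture cannot be told apart. The labels do not state whether the 2 libraries of a group came from separate mice, so the p-values measure only the spread between these libraries, which may be technical.

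Chemokines are small secreted proteins that bind G protein-coupled receptors on leukocytes and direct their movement. Neutrophils respond to chemokines through CXCR2 and CCR1, and they also secrete chemokines that recruit further neutrophils, monocytes and T cells. Signalling from TLR7 through MyD88 activates NF-kB, AP-1 and interferon regulatory factors, which are known to drive many chemokine genes. Cxcl1, Cxcl2 and Cxcl3 encode ligands of CXCR2, a receptor shared with the product of Ppbp. Cxcl10 encodes a ligand of CXCR3, and Cxcl16 a ligand of CXCR6 that is made as a membrane protein and can be shed. Ccl3 and Ccl4 encode inflammatory CC chemokines that attract monocytes and T cells, and Ccl3 binds CCR1. Ccl2 encodes a ligand of CCR2, the receptor of inflammatory monocytes. Ccl6 and Ccl9 encode CC chemokines of mice that bind CCR1.

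Most of these genes lie in 2 clusters of the mouse genome (build GRCm38, GENCODE annotation). Cxcl1, Cxcl2 and Cxcl3 lie on the plus strand of chromosome 5 within 119.8 kb, from 90786103 to 90905938. Cxcl10 lies on the minus strand of the same chromosome, from 92346638 to 92348889. Ccl3, Ccl4, Ccl6 and Ccl9 lie on chromosome 11 within 91.77 kb, from 83572919 to 83664683, with Ccl4 on the plus strand and the other three on the minus strand. Ccl2 and Cxcl16 lie elsewhere on chromosome 11, from 82035571 to 82037453 and from 70453983 to 70459984. Exons of Cxcl10 overlap those of Art3 on the opposite strand by 133 bp, and exons of Cxcl16 overlap those of Zmynd15 by 552 bp. The library kit does not mark strand, so reads from these overlaps cannot be assigned to 1 of the genes.

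The start sites of 7 of the 10 genes had a window of 300 bases, from 250 before to 50 after the start, in the RefSeq annotation of GRCm38.p6; Ccl2, Ccl4 and Cxcl16 had none. The NF-kB consensus was searched on both strands and occurred in 5 of the 7 windows and in 8.46% of 32851 promoter windows of the same length. The 250 bases before the start are shown 5′ to 3′ in the direction of transcription for 5 genes, with the bases that match the NF-kB consensus in capitals. Cxcl2 and Cxcl10 are shown because their levels after R848 differed most between the genotypes among the 6 members that averaged 10 counts or more, Cxcl1 because it shares the match of Cxcl2 and had no counts, Ccl3 because it had the highest level after R848, and Ccl6 because it had the highest level without stimulation.
Cxcl1: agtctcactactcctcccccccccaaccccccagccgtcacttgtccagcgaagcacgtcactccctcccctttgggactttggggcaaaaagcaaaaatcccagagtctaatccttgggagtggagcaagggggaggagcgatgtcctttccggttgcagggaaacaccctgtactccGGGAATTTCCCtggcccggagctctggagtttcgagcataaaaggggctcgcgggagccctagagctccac
Cxcl2: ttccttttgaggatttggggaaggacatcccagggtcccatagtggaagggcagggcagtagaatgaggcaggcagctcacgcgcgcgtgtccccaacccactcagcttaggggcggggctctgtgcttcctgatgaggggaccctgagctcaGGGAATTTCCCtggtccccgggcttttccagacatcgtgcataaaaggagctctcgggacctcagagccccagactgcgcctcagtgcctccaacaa
Cxcl10: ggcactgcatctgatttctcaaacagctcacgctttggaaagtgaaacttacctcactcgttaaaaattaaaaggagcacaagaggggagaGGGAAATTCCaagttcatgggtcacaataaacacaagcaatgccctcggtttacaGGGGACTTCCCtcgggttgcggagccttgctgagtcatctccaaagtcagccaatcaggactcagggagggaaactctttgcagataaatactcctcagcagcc
Ccl3: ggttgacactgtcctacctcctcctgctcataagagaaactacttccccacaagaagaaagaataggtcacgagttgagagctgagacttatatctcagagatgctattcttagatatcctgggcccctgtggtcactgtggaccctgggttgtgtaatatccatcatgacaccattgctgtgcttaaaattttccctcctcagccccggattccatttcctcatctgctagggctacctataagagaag
Ccl6: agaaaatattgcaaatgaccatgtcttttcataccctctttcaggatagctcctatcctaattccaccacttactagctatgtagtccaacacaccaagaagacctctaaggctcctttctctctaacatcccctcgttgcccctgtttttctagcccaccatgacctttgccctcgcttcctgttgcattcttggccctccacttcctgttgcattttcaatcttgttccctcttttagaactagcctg

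These stretches lie on the plus strand at chr5:90890995-90891244 (Cxcl1) and chr5:90903649-90903898 (Cxcl2), and on the minus strand at chr5:92348890-92349139 (Cxcl10), chr11:83649379-83649628 (Ccl3) and chr11:83593088-83593337 (Ccl6). Cxcl1, Cxcl2 and Cxcl3 held the same 10 bases, gggaatttcc, beginning at position -71, -97 and -73 from the start site, and the run of 11 capitals in each holds a match on both strands that overlap. The Cxcl10 window held 3 matches, of which the 2 nearest to the start overlap, 1 match to the AP-1 motif TGANTCA and 1 to the interferon-stimulated response element, GAAA and GAAA with 2 bases between them. Ccl9 held 1 NF-kB match on the opposite strand. The TATA box motif TATAAA occurred in the windows of Cxcl3 and Ccl9 and in 13.6% of all windows. The AP-1 motif occurred in Cxcl10 and Ccl9 and in 7.81% of all windows, and the interferon-stimulated response element in Cxcl10 and in 3.44%. The windows of Ccl3 and Ccl6 held none of the 4 motifs as spelled here. A match describes the letters and does not show that a factor binds.

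Reads counted on genes ranged from 562446 to 1177972 per library, and 3 counts equalled 2.55 to 5.33 CPM (counts normalised for sequencing depth, here by the library total), which covers counting error only. Padi4 had 527 and 590 counts in unstimulated WT and 40 and 54 in unstimulated Padi4 KO libraries, and 166 and 234 in WT and 21 and 34 in Padi4 KO libraries after R848. The summed level of 12 measured neutrophil markers was 154100 to 168900 CPM of the library total in WT and 125400 to 134700 CPM in Padi4 KO libraries. The sum of 7 measured erythroid markers was 11.96 to 44.45 CPM in WT and 461.7 to 817.3 CPM in Padi4 KO. The sum of 12 monocyte and macrophage markers was 1563 to 1671 CPM in unstimulated WT and 2339 to 2340 CPM in unstimulated Padi4 KO. After R848 it was 3414 to 3558 CPM and 3644 to 3733 CPM, when the marker Mrc1 was at 0 in both genotypes. By the rule given below, 3 of these 12 markers were called higher and 4 lower after R848 in each genotype. The shares over all tested genes were 7.18% and 10.8% in WT and 8.09% and 8.83% in Padi4 KO. The median log2 fold change of the 12 markers was -0.92 in WT and -0.80 in Padi4 KO, while their sum rose. Stromal and endothelial markers summed to 247 to 311 CPM in unstimulated WT and 610 to 769 CPM in unstimulated Padi4 KO, and to 136 to 139 CPM and 93.5 to 98.5 CPM after R848. Of these, Cxcl12 and Cdh5 were at 0 in unstimulated WT, Lepr in unstimulated Padi4 KO, and all 3 after R848 in both genotypes. B and plasma cell markers summed to 88.9 to 110 CPM in unstimulated WT and 176 to 180 CPM in unstimulated Padi4 KO, and to 42.6 to 56.8 CPM and 109 to 119 CPM after R848. The B cell marker Ebf1 was at 0 in every group, Pax5 in all but Padi4 KO after R848, and Ms4a1 in all but unstimulated WT. The lists for eosinophils, basophils and mast cells, for T and NK cells and for dendritic cells each summed to between 4.25 and 55.7 CPM. In these bulk samples, fewer cells of a type and less RNA per cell cannot be told apart, and the part of these differences in the values below was not tested.

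Cxcl1 had 0 counts in all 8 libraries, and the other 9 genes passed the filter for testing, 1 count in 2 or more libraries. CPM values below are scaled with TMM factors, which adjust for differences in RNA composition. Log2 fold changes with their standard errors (SE) were fitted with edgeR's quasi-likelihood method over 12254 genes, and p-values were adjusted over all of them by Benjamini and Hochberg. A response to R848 was called where the adjusted p was below 0.1 and the change exceeded 2-fold, and a genotype difference where the adjusted p alone was below 0.1. In WT neutrophils, 6 of the 9 tested genes were called higher after R848 (Cxcl2, Cxcl3, Cxcl10, Cxcl16, Ccl3 and Ccl4) and 1 lower (Ccl6), where 7.18% of all tested genes were called higher and 10.8% lower. In Padi4 KO neutrophils, 6 were called higher (Cxcl2, Cxcl10, Cxcl16, Ccl2, Ccl3 and Ccl4) and 1 lower (Ccl6), against 8.09% and 8.83% of all tested genes. The 9 members had a median log2 fold change of 5.05 (WT) and 2.03 (Padi4 KO), beside medians of -0.17 and -0.03 over all tested genes. The WT median is the fitted value of Cxcl3, which like Cxcl16 had 0 counts in unstimulated WT. Such values depend on the model and are no measure of size for those genes. The Padi4 KO median is the value of Ccl2, and Cxcl3 and Cxcl16 had 1 count in unstimulated Padi4 KO.

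**Figure D1:**
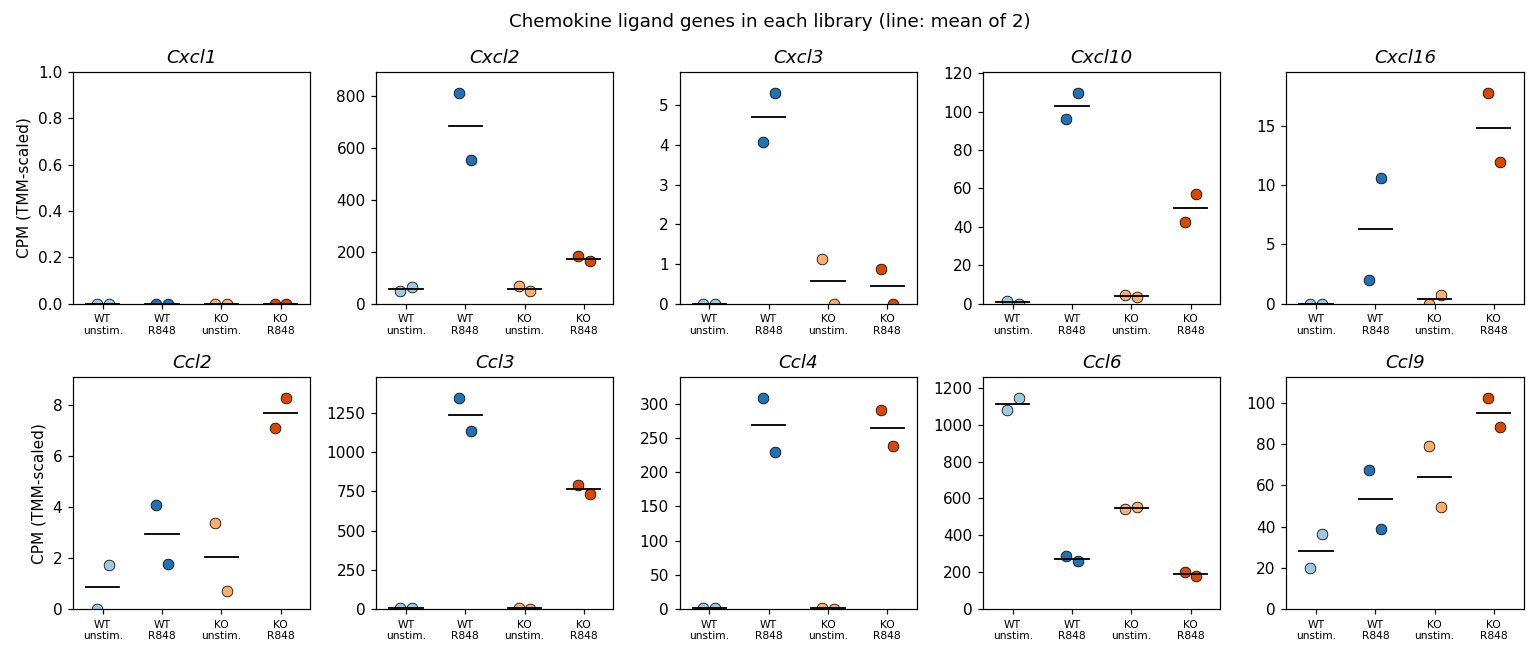
Each panel shows 1 gene, with CPM scaled by TMM factors on a linear axis that starts at 0 and differs between panels, a point for each library and a line at the mean of the 2 libraries of a group. Ccl3, Ccl4, Cxcl2 and Cxcl10 are higher after R848 in both genotypes, Ccl6 falls from 1111 to 273 CPM in WT and from 547 to 190 CPM in Padi4 KO, and Cxcl1 is at 0 in all 8 libraries.

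Among Cxcl1, Cxcl2 and Cxcl3, Cxcl2 carried nearly all counts, and its rise after R848 was smaller in Padi4 KO neutrophils. Cxcl2 had 31 and 38 counts in unstimulated WT, 397 and 313 in WT after R848, 60 and 68 in unstimulated Padi4 KO, and 207 and 178 in Padi4 KO after R848. In CPM, these were 56.7 ± 12.5, 682 ± 181, 58.6 ± 13.1 and 174 ± 14.4 (SD, n = 2 each). The unstimulated groups overlapped, and after R848 both WT libraries lay above both Padi4 KO libraries. The mean CPM rose 12.02-fold in WT (log2 fold change 3.58, SE 0.15, adjusted p = 2.37e-120) and 2.97-fold in Padi4 KO (1.61, SE 0.15, adjusted p = 8.37e-26). The response in Padi4 KO was lower than that in WT by 1.97 on the log2 scale (log2 difference -1.97, SE 0.24, adjusted p = 1.86e-13), and it remained past the threshold under each alternative run, with adjusted p-values from 2.16e-21 to 7.47e-07. Ranked by the difference of response, it was the 34th lowest of 6912 genes with at least 10 counts on average. After R848, Padi4 KO was below WT (-1.96, SE 0.11, adjusted p = 8.89e-71), the 12th lowest log2 fold change of those genes. Without stimulation the log2 fold change of Padi4 KO against WT was 0.01 (SE 0.22, adjusted p = 0.99), and its sign changed when 1 library was left out.

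Cxcl1 and Cxcl3 were near or below the detection limit. Cxcl1 had no count in any library, where 3 counts would equal at most 5.33 CPM. Cxcl3 had 0 counts in both unstimulated WT libraries, 2 and 3 in WT after R848, 1 and 0 in unstimulated Padi4 KO, and 1 and 0 in Padi4 KO after R848. The WT call for Cxcl3 (adjusted p = 0.0776) thus rests on 5 reads against none, at least 1.94-fold higher with 3 counts over the group in place of 0. It was lost with the replicate number as a block (adjusted p = 0.172), without a filter, and without either library of unstimulated or R848-treated WT, with adjusted p-values from 0.0365 to 0.253 over the alternatives that gave one. DESeq2 gave none.

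Cxcl10 rose in both genotypes and reached a lower level in Padi4 KO. It had 1 and 0 counts in unstimulated WT, 47 and 62 in WT after R848, 4 and 5 in unstimulated Padi4 KO, and 48 and 62 in Padi4 KO after R848. The near-equal counts after R848 come from libraries of different depth, and in CPM WT stood at 103 ± 9.75 and Padi4 KO at 49.8 ± 10.1 (SD, n = 2 each). The 2 groups did not overlap after R848, and Padi4 KO was lower (log2 fold change -1.05, SE 0.20, adjusted p = 7.97e-06). Over the summed counts, the ratio of R848 to unstimulated was 126.7 in WT, with a 95% counting interval of 22.3 to 5050, and 12.5 in Padi4 KO, with an interval of 6.35 to 28.1. The response was called in WT (log2 fold change 6.75, SE 0.55, adjusted p = 4.86e-33; 9.50 without the first unstimulated WT library and 5.94 without the second) and in Padi4 KO (3.60, SE 0.36, adjusted p = 8.77e-22). The difference of response was -3.15 (SE 1.12, adjusted p = 0.105) and did not pass; it rests on 1 count in unstimulated WT, and it was -5.90 (adjusted p = 0.156) without the first unstimulated WT library and -2.34 (adjusted p = 0.444) without the second. It passed with RLE factors (adjusted p = 0.0984), with the filterByExpr filter (0.0733), and without the first (0.0723) or second (0.0962) WT R848 library or the second Padi4 KO R848 library (0.0751). Without stimulation, Padi4 KO and WT were not distinguishable at this depth (9 counts against 1, ratio 4.88, 95% counting interval 0.676 to 213.7, adjusted p = 0.212).

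Cxcl16 had 0 counts in both unstimulated WT libraries, 1 and 6 in WT after R848, 0 and 1 in unstimulated Padi4 KO, and 20 and 13 in Padi4 KO after R848. The ratio of summed counts in Padi4 KO was 33.7, with a 95% counting interval of 5.65 to 1373 (adjusted p = 1.12e-07). Its fitted log2 fold change of 4.67 was 6.54 (adjusted p = 0.000108) without the second unstimulated Padi4 KO library and at least 4.10 without any other single library. In WT it was at least 2.71-fold higher after R848 (adjusted p = 0.0121), and this call was lost without the second WT R848 library (fitted log2 fold change 3.98 in place of 5.52, adjusted p = 0.346) and the value was 6.35 without the first. After R848, the level in both Padi4 KO libraries was above both WT libraries, but the log2 fold change of 1.15 (SE 0.59, adjusted p = 0.221) did not pass. It ranged from 0.34 (adjusted p = 0.816, without the first WT R848 library) to 2.71 (adjusted p = 0.0957, without the second) when a library was left out, and it was 0.73 (adjusted p = 0.653) without the first Padi4 KO R848 library.

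**Figure D2:**
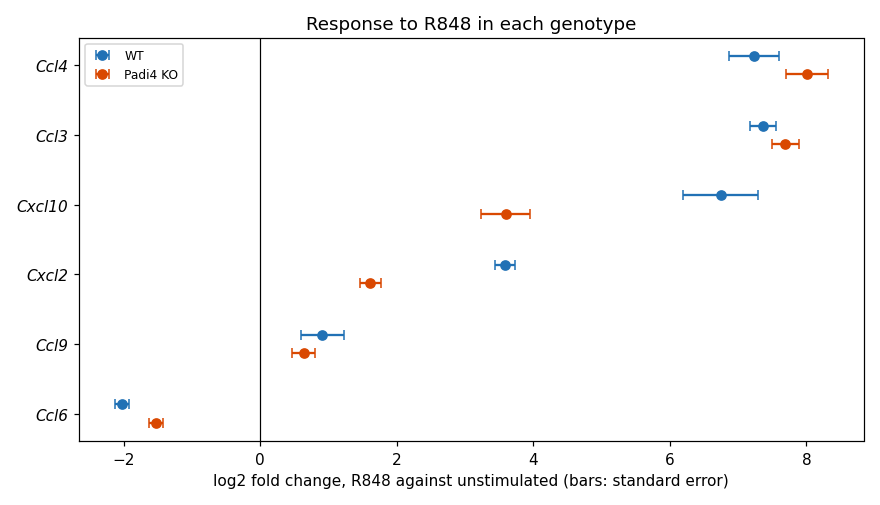
Points show the log2 fold change of R848 against unstimulated libraries in WT (blue) and Padi4 KO (orange) for the 6 genes with at least 10 counts on average, and bars show the standard error. The genotypes are apart for Cxcl2 (3.58 and 1.61) and Cxcl10 (6.75 and 3.60, a difference that did not pass the test), Ccl3 and Ccl4 lie above 7 in both, and the bar of Cxcl10 in WT (0.55) is the widest.

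Ccl3 and Ccl4 rose steeply after R848 in both genotypes. In WT, their order against Cxcl10 was not settled, since without the first unstimulated WT library the log2 fold change was 9.50 for Cxcl10, 7.14 for Ccl3 and 7.16 for Ccl4. Ccl3 had 4 and 5 counts in unstimulated WT, 658 and 640 in WT after R848, 4 and 4 in unstimulated Padi4 KO, and 892 and 796 in Padi4 KO after R848. After R848, WT stood at 1238 ± 149 CPM and Padi4 KO at 762 ± 43.3 CPM (SD, n = 2 each), and these groups did not overlap. The ratio of summed counts was 167.7 in WT (95% counting interval 88.0 to 367.5; log2 fold change 7.37, SE 0.20, adjusted p = 5.23e-303) and 215.7 in Padi4 KO (109.2 to 500.5; log2 fold change 7.69, SE 0.19, adjusted p too small to be represented). In each genotype, this was the 13th highest log2 fold change of the 6912 genes. After R848, Padi4 KO was below WT (-0.70, SE 0.08, adjusted p = 2.72e-15), and the log2 fold change without stimulation was -1.02 (SE 0.65, adjusted p = 0.331). The difference of response was 0.33 (SE 0.61, adjusted p = 0.92), so the responses were not distinguishable with 8 and 9 unstimulated counts.

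Ccl4 had 1 count in each unstimulated library, 151 and 130 in WT after R848, and 328 and 260 in Padi4 KO after R848. The ratio of summed counts was 163.3 in WT (95% counting interval 44.8 to 1355; adjusted p = 6.58e-83) and 300.6 in Padi4 KO (82.9 to 2488; adjusted p = 1.04e-147). After R848 the 2 genotypes overlapped at 269 ± 55.3 and 265 ± 37.2 CPM (SD, n = 2 each), and the log2 fold change of Padi4 KO against WT was -0.01 (SE 0.12, adjusted p = 1); it was 0.21 with library size alone in place of TMM factors. Ccl3 and Ccl4 lie in the same cluster, and their log2 CPM correlated with a Pearson r of 0.996 over the 8 libraries, a value set largely by the R848 response that both share.

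The ratio of 2 genes within a library does not depend on the scaling between libraries. Ccl3 had 1.66 and 2.05 counts for each Cxcl2 count in WT after R848 and 4.31 and 4.47 in Padi4 KO after R848. Without stimulation, this ratio was 0.129 and 0.132 in WT and 0.067 and 0.059 in Padi4 KO. Ccl4 had 0.380 and 0.415 counts for each Cxcl2 count in WT after R848 and 1.58 and 1.46 in Padi4 KO. Ccl3 had 4.36 and 4.92 counts for each Ccl4 count in WT after R848 and 2.72 and 3.06 in Padi4 KO. In each of these 3 ratios the genotypes did not overlap after R848, with no test applied to the ratios.

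Ccl2 was close to the detection limit. It had 0 and 1 counts in unstimulated WT, 2 and 1 in WT after R848, 3 and 1 in unstimulated Padi4 KO, and 8 and 9 in Padi4 KO after R848. The Padi4 KO response was called (ratio of summed counts 4.35, 95% counting interval 1.42 to 17.8, adjusted p = 0.0289), but not with DESeq2 (adjusted p = 0.391) and not without either Padi4 KO R848 library or the second unstimulated one (adjusted p-values from 0.104 to 0.416). Its fitted log2 fold change of 2.03 was 3.16 without the first unstimulated Padi4 KO library and 1.15 without the second. The difference between genotypes after R848 did not pass (17 counts against 3, adjusted p = 0.36).

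Ccl6 was the chemokine ligand with the highest level in unstimulated neutrophils, and it fell after R848 in both genotypes. It had 698 and 663 counts in unstimulated WT, 141 and 146 in WT after R848, 480 and 760 in unstimulated Padi4 KO, and 226 and 194 in Padi4 KO after R848. In CPM, these were 1111 ± 45.5, 273 ± 20.8, 547 ± 6.12 and 190 ± 16.0 (SD, n = 2 each), and no pair of groups overlapped. The level fell 4.07-fold in WT (log2 fold change -2.03, SE 0.10, adjusted p = 1.89e-82) and 2.89-fold in Padi4 KO (-1.53, SE 0.10, adjusted p = 7.86e-53). Padi4 KO was below WT without stimulation (-1.02, SE 0.08, adjusted p = 4.65e-31) and after R848 (-0.52, SE 0.12, adjusted p = 0.000432). Over the alternatives that kept all libraries, the value without stimulation lay between -1.02 and -0.73. The value after R848 lay between -0.62 and -0.31, and its adjusted p reached 0.0842, close to the limit. The fall was smaller in Padi4 KO by 0.50 on the log2 scale (SE 0.15, adjusted p = 0.0311), beside a median difference of response of 0.18 over the 6912 genes. This call was lost with RLE factors (0.35, adjusted p = 0.288), with library size alone (0.43, adjusted p = 0.112), with DESeq2 (0.34, adjusted p = 0.504), and without the second unstimulated WT library, the first unstimulated Padi4 KO library or any 1 of the 4 R848 libraries (0.17 to 0.48, adjusted p-values from 0.104 to 0.837).

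Ccl9, which lies in the same cluster as Ccl6, moved the other way between the genotypes. It had 13 and 21 counts in unstimulated WT, 33 and 22 in WT after R848, 70 and 68 in unstimulated Padi4 KO, and 115 and 96 in Padi4 KO after R848. In CPM, these were 28.2 ± 11.4, 53.1 ± 20.1, 64.2 ± 21.1 and 95.2 ± 9.88 (SD, n = 2 each). Padi4 KO was higher without stimulation (log2 fold change 1.14, SE 0.26, adjusted p = 0.000203) and after R848 (0.87, SE 0.21, adjusted p = 0.000872). The unstimulated call was lost without the first unstimulated WT library (0.76, adjusted p = 0.116). The call after R848 was lost without the second WT R848 library (0.42, adjusted p = 0.387) and with DESeq2 (0.76, adjusted p = 0.233). Its R848 responses of 0.91 in WT (SE 0.31, adjusted p = 0.018) and 0.64 in Padi4 KO (SE 0.17, adjusted p = 0.000715) were under the 2-fold limit. The WT value lay between 0.52 (adjusted p = 0.375, without the first unstimulated WT library) and 1.38 (adjusted p = 0.00111, without the second WT R848 library) when a library was left out. It was called without the second unstimulated WT library (1.37), without the second WT R848 library, without either Padi4 KO R848 library (1.00 each) and in a separate model (1.03). The Padi4 KO value was 0.27 (adjusted p = 0.412) without the second unstimulated Padi4 KO library, 0.38 (adjusted p = 0.193) without the first Padi4 KO R848 library and 0.26 (adjusted p = 0.228) with library size alone. The counts of Ccl6 for each Ccl9 count were 53.7 and 31.6 in unstimulated WT and 6.86 and 11.2 in unstimulated Padi4 KO, and 4.27 and 6.64 in WT and 1.97 and 2.02 in Padi4 KO after R848.

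**Figure D3:**
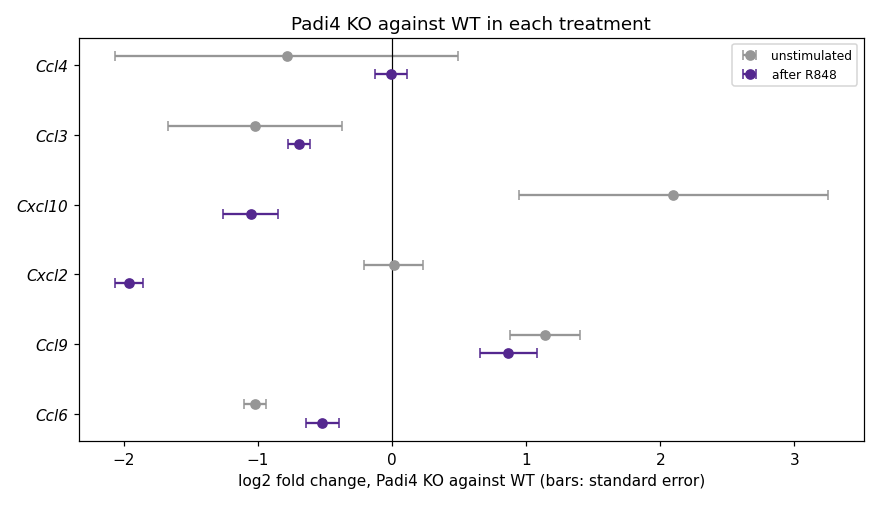
Points show the log2 fold change of Padi4 KO against WT without stimulation (grey) and after R848 (purple) for the 6 genes with at least 10 counts on average, and bars show the standard error. Cxcl2 lies at 0.01 without stimulation and at -1.96 after R848, Ccl6 lies below 0 and Ccl9 above 0 under both conditions, and Ccl4 lies at -0.01 after R848.

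Counted over the 9 tested genes, Padi4 KO against WT without stimulation was called higher for 1 gene (Ccl9) and lower for 1 (Ccl6), where 9.54% of all tested genes were called higher and 14.4% lower. After R848, 1 was called higher (Ccl9) and 4 lower (Cxcl2, Cxcl10, Ccl3 and Ccl6), where 9.44% of all tested genes were called higher and 7.84% lower. Their median log2 fold change was 0.99 without stimulation and -0.52 after R848, beside -0.03 and 0.08 over all tested genes. The 0.99 is the fitted value of Ccl2, from 4 counts against 1, and Cxcl3 and Cxcl16 had 0 counts in unstimulated WT. It is thus no measure of size for the set. Without stimulation, the 6 members that averaged 10 counts or more had 2.10 (Cxcl10), 1.14 (Ccl9), 0.01 (Cxcl2), -0.79 (Ccl4), -1.02 (Ccl6) and -1.02 (Ccl3). For the difference of response, 1 gene was called higher in Padi4 KO (Ccl6) and 1 lower (Cxcl2), where 3.44% and 1.26% of all tested genes were called. The 3 comparisons share libraries, so their counts are not independent.

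The make-up of the chemokine ligand transcripts was compared per length, as CPM for each kb of the longest principal coding transcript. Without stimulation, Ccl6 took 90.1% to 92.4% of the summed level of the 10 genes in WT and 78.3% to 84.5% in Padi4 KO. After R848, Ccl3 took 53.6% to 56.2% in WT and 55.3% to 56.7% in Padi4 KO, and Ccl6 6.11% to 6.82% and 7.35% to 7.45%. The share of Cxcl2 after R848 was 19.0% to 22.3% in WT and 8.76% to 8.87% in Padi4 KO, and that of Ccl4 was 13.3% to 14.3% in WT and 21.5% to 23.6% in Padi4 KO. With the union of exons as length, the Cxcl2 share after R848 was 11.6% to 13.8% in WT and 5.07% to 5.11% in Padi4 KO, that of Ccl3 61.7% to 64.1% and 59.4% to 61.2%, and that of Ccl4 15.1% to 16.4% and 23.2% to 25.4%. By both lengths, after R848 the Cxcl2 share was higher and the Ccl4 share lower in both WT libraries than in both Padi4 KO libraries. The mean Ccl4 level was near equal, at 408 CPM per kb in WT and 402 in Padi4 KO. Its share differed through the summed level, which was 3271 and 2631 CPM per kb in WT and 1870 and 1684 in Padi4 KO. Without stimulation the Cxcl2 share was lower in WT, at 5.33% and 6.71% against 12.7% and 9.82% in Padi4 KO. Its mean level was near equal, at 51.2 and 52.8 CPM per kb, while that of Ccl6 was 772 in WT and 380 in Padi4 KO. This share thus differed through the summed level. The 10 genes together held 0.0824% to 0.235% of the counts on genes.

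**Figure D4:**
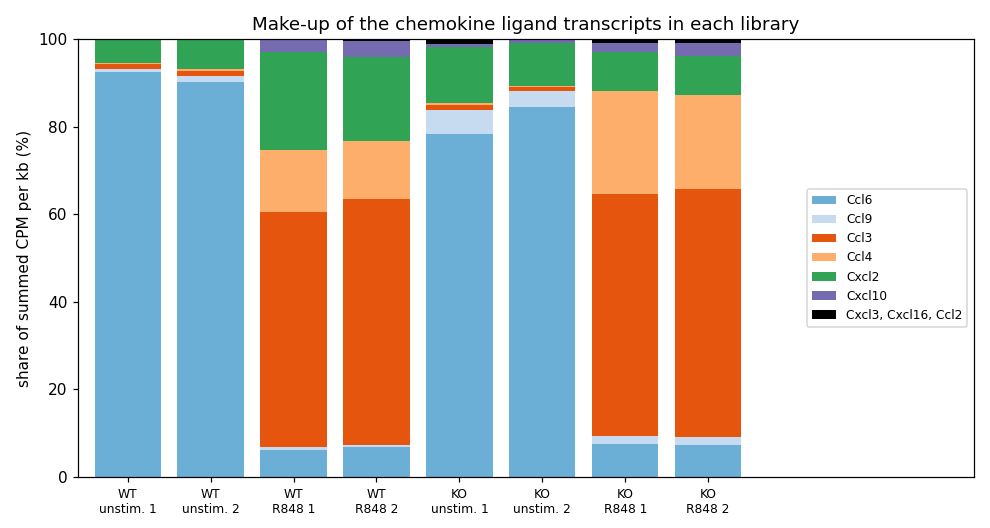
Each bar is 1 library and stacks the share of each gene in the summed CPM per kb of the 10 genes, in percent, with the principal transcript as length. Ccl6 fills 78.3% to 92.4% of the unstimulated bars and under 8% of the R848 bars, where Ccl3 takes the most and the Cxcl2 segment is wider in WT than in Padi4 KO.

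In the order of mean level per length, unstimulated WT had Ccl6 (772 ± 31.6 CPM per kb), then Cxcl2 (51.2 ± 11.2), then Ccl3 (9.67 ± 2.25) and Ccl9 (9.37 ± 3.79), of which the last 2 overlapped, and then Ccl4 (2.48 ± 0.19). Unstimulated Padi4 KO had Ccl6 (380 ± 4.25 CPM per kb), Cxcl2 (52.8 ± 11.8), Ccl9 (21.4 ± 7.01), and then Ccl3 (4.84 ± 1.5) and Cxcl10 (3.72 ± 0.58), which overlapped. WT after R848 had Ccl3 (1616 ± 194 CPM per kb), Cxcl2 (615 ± 164), Ccl4 (408 ± 83.7), Ccl6 (190 ± 14.4), Cxcl10 (94.0 ± 8.91) and Ccl9 (17.7 ± 6.69), with no overlap between neighbours. Padi4 KO after R848 had Ccl3 (995 ± 56.5 CPM per kb), Ccl4 (402 ± 56.3), Cxcl2 (157 ± 13), Ccl6 (132 ± 11.1), Cxcl10 (45.5 ± 9.25) and Ccl9 (31.7 ± 3.29), again without overlap. These errors are SD with n = 2. The order of Cxcl2 and Cxcl10 among their neighbours depends on the length used, because the union of all annotated exons of Cxcl2 is 2068 bp and its principal transcript 1109 bp. With the union, Ccl4 came before Cxcl2 in WT after R848, with overlapping libraries, and in Padi4 KO after R848 Ccl6 came before Cxcl2 and Ccl9 before Cxcl10.

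Of 29 other chemokine ligand genes, 17 had 0 counts in all 8 libraries and 9 were tested. In WT, 1 was called higher after R848 and 1 lower, and in Padi4 KO 1 was called higher and 3 lower. Over all tested genes these shares were 7.18% and 10.8% in WT and 8.09% and 8.83% in Padi4 KO. Ccl5, a CC chemokine that attracts T cells and monocytes, had 0 counts in all 4 unstimulated libraries, 11 and 10 in WT after R848, and 82 and 48 in Padi4 KO after R848, and Padi4 KO was higher (log2 fold change 1.55, SE 0.31, adjusted p = 1.88e-05). Ppbp and Pf4 encode chemokines stored in platelets, and processed forms of the Ppbp product bind CXCR2. Ppbp had 27 and 22 counts in unstimulated WT, 1 and 2 in WT after R848, 57 and 77 in unstimulated Padi4 KO, and 8 and 9 in Padi4 KO after R848, and it fell in both genotypes (adjusted p = 2.25e-09 in WT and 7.56e-21 in Padi4 KO). Padi4 KO was called higher for 2 of the 9 tested genes in each condition, against 9.54% of all tested genes without stimulation and 9.44% after R848. These were Ppbp (0.57, SE 0.24, adjusted p = 0.0854) and Pf4 (1.51, SE 0.33, adjusted p = 6.04e-05) without stimulation, and Ccl5 and Pf4 (1.31, SE 0.54, adjusted p = 0.0912) after R848. The summed level of 5 megakaryocyte and platelet markers moved with Ppbp and Pf4, while Ccl5 went the other way after R848. The sum was 40.9 to 64.0 CPM in unstimulated WT and 78.2 to 88.0 CPM in unstimulated Padi4 KO. After R848 it was 4.49 to 11.5 CPM in WT and 17.8 to 22.0 CPM in Padi4 KO. Its part in the values of Ppbp and Pf4 was not tested.

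Of 10 genes for receptors of these ligands and atypical receptors, 9 were tested. In WT, 1 was called higher after R848 and 2 lower, and in Padi4 KO 2 higher and 3 lower, beside the same background of 7.18% and 10.8% in WT and 8.09% and 8.83% in Padi4 KO. Ccr1, the receptor of Ccl3, Ccl6 and Ccl9, fell from 375 to 175 CPM in WT (log2 fold change -1.12, SE 0.13, adjusted p = 1.51e-15) and from 281 to 102 CPM in Padi4 KO (-1.46, SE 0.12, adjusted p = 6.37e-32). Padi4 KO was below WT without stimulation (-0.42, SE 0.11, adjusted p = 0.00108) and after R848 (-0.76, SE 0.15, adjusted p = 2.42e-05). Ccrl2, an atypical receptor that binds chemerin and does not signal as the others do, rose from 5.59 to 203 CPM in WT and from 7.18 to 123 CPM in Padi4 KO, and it was lower in Padi4 KO after R848 (-0.72, SE 0.15, adjusted p = 2.26e-05). Ccr2, the receptor of Ccl2, was higher in Padi4 KO without stimulation (1.56, SE 0.18, adjusted p = 7.58e-16) and after R848 (0.88, SE 0.29, adjusted p = 0.0221), and it fell in both genotypes after R848. Of the 9 tested receptor genes, Padi4 KO was called higher for 1 and lower for 1 without stimulation, and higher for 1 and lower for 2 after R848, against 9.54% and 14.4%, and 9.44% and 7.84%, of all tested genes. Cxcr2, the receptor of Cxcl1, Cxcl2 and Cxcl3, was at 1167 CPM in unstimulated WT and 835 CPM in WT after R848. In Padi4 KO it was at 1080 CPM without stimulation and 857 CPM after R848. Cxcr2 thus fell in WT (-0.48, SE 0.08, adjusted p = 1.55e-07) and in Padi4 KO (-0.33, SE 0.08, adjusted p = 8.6e-05), and neither change reached 2-fold. Its log2 fold change of Padi4 KO against WT after R848 was 0.04 (SE 0.08, adjusted p = 0.837).

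Of 11 genes whose products shed, cleave or tether chemokines, 2 were called higher and 3 lower after R848 in each genotype, beside 7.18% and 10.8% of all tested genes in WT and 8.09% and 8.83% in Padi4 KO. Adam17, a membrane protease that sheds surface proteins, rose from 65.3 to 401 CPM in WT (log2 fold change 2.61, SE 0.16) and from 63.0 to 321 CPM in Padi4 KO (2.38, SE 0.13), and the difference of response was -0.23 (SE 0.23, adjusted p = 0.761). Adam10, the protease best known for shedding CXCL16, was between 119 and 155 CPM in all 4 groups and was not called as a response. Mmp8, the collagenase of neutrophil granules, fell from 6615 to 2247 CPM in WT and from 3516 to 1289 CPM in Padi4 KO, and it was lower in Padi4 KO without stimulation (-0.91, SE 0.06, adjusted p = 1.53e-41) and after R848 (-0.80, SE 0.07, adjusted p = 4.96e-27). The granule proteases Elane and Prtn3 fell in both genotypes as well. Without stimulation, 6 of the 11 genes were called lower in Padi4 KO (Mmp8, Mmp9, Elane, Ctsg, Prtn3 and Cd44), where 14.4% of all tested genes were. After R848 these 6 and Adam17 were called lower (log2 fold changes from -1.19 for Elane to -0.24 for Mmp9) and Adam10 higher (0.38, SE 0.16, adjusted p = 0.0955), where 7.84% of all tested genes were called lower and 9.44% higher. Values of these genes under the alternatives are not given here. With library size alone, the median over the 6912 genes after R848 moved from 0.00 to 0.21. The values of Mmp9 (-0.24) and Adam17 (-0.31) are of similar size to that move. The difference of response was called for Mmp9 (0.28, SE 0.09, adjusted p = 0.055) and Prtn3 (-0.68, SE 0.24, adjusted p = 0.0883), where 3.44% of all tested genes were called higher and 1.26% lower and the median over the 6912 genes was 0.18 (0.024 with RLE factors). Of the 12 measured neutrophil markers, 11 were called lower in Padi4 KO without stimulation and 10 after R848. These markers include Mmp8 and Mmp9 of the present list and also Cxcr2, so the lists overlap. The part of the markers in these differences was not tested.

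The genes most like each member were taken by the Pearson r of log2 CPM over the 8 libraries, among 6912 genes with at least 10 counts on average. The libraries share the R848 contrast, so many genes reach high values, and r is a description here. For Cxcl2 these were Slc16a3, Atf4 and Trafd1 (r from 0.987 to 0.991), and 427 genes had r over 0.9. For Cxcl10 they were Irf5, Il10ra and Srxn1 (0.994 to 0.997), and 584 genes had r over 0.9. For Ccl3 they were Fas, Pla2g7 and Siglece (all over 0.999), and for Ccl4 Ccdc71l, Rnf145 and Ikbke (0.999 each). For Ccl6 they were Tmed3, Crispld2 and Plcb2 (0.996 to 0.998). Ccl9 stood apart with 17 genes over 0.9, led by Uhrf2 (0.974), Mrpl52 (0.941) and Oard1 (0.933).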

How the data were processed

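RNA of magnetically isolated bone marrow neutrophils, stated to be of high purity, was sequenced with paired ends. The authors checked reads with FastQC 0.11.7, trimmed them with cutadapt 1.16, filtered them with FASTX, mapped them to UCSC mm10 with STAR 2.5.3a and counted them with HTSeq 0.6.1p1. The deposited values are raw counts per gene symbol. The annotation and strand setting of the counting are not given in the sources used here. Rows that name no gene were left out, and 86.97% to 89.45% of each library's table counts lay on genes.

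Genes with at least 1 count in at least 2 libraries were fitted with edgeR 4.0.16 (R 4.3.3, limma 3.58.1) by the robust quasi-likelihood test, with TMM factors and 1 mean for each of 4 groups over all 8 libraries. SE was derived from the log2 fold change and the F statistic of the same contrast. With 2 libraries against 2, an exact permutation test of 1 gene cannot go below p = 0.333 (two-sided), so the tests rest on the spread shared across genes. Counting intervals are exact 95% binomial intervals on summed counts and cover counting error only. Duplicates differed by more than counting noise in each group (chi-square over degrees of freedom 1.67 in WT after R848 and 1.05 to 1.16 in the other groups). The script was tested on simulated data. DESeq2 1.42.0, which the authors used in another version, was an alternative, beside RLE factors, library size alone, other filters, the replicate block, a false discovery rate of 0.05, separate models and leaving out each library. Levels per length first used the union of exons; the principal transcript was put in its place after seeing the data, because the union spans the introns of Cxcl2 and Cxcl10, and the orders by both lengths are given. The genes and lists were chosen with earlier results of these data known. Named were the 10 members, Padi4, genes of the 3 lists called in at least 1 comparison with at least 10 counts on average, and the 3 genes most like each such member; Cxcr2 falls outside this rule and was chosen after its values were seen. Cell type markers came from lists written by hand; 1 neutrophil and 1 erythroid marker had no row. A further gene of the receptor list was left out of its counts and is not reported here.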

Additional observations from a re-analysis of the deposited data

Results flagged for a closer look

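The difference of response to R848 between the genotypes was past the threshold for Cxcl2 and Ccl6. For Cxcl2, subtracting the WT response from the Padi4 KO response gave -1.97 on the log2 scale. For Ccl6 it was 0.50, and this call was lost under several alternatives given above. Dixon's check for an outlying library needs at least 4 samples in a group and was not run.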

How the results depend on the processing

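Over the fold changes of the 9 tested members in the 5 comparisons, 633 alternatives were run, of which 574 kept both direction and side of the threshold, 24 lost the call, 11 gained it and 24 changed sign. No call of Cxcl2, Ccl3 or Ccl4 was lost, nor any call of Cxcl10; the calls lost were those of Ccl2, Cxcl3, Cxcl16 and Ccl9 and the difference of response of Ccl6. For the difference of response, the number of members called fell from 2 to 1 with library size alone and 1 with DESeq2, rose to 3 with the filterByExpr filter (Cxcl10 gained), and was 1 to 2 when a library was left out. It was 2 with RLE factors, with Cxcl10 gained and Ccl6 lost. The filterByExpr filter tested 6 members, so the calls of Cxcl3 and Cxcl16 in WT and of Ccl2 and Cxcl16 in Padi4 KO were not made and 5 responses were called in each genotype. At a false discovery rate of 0.05, the WT call of Cxcl3 was lost. For Padi4 KO against WT without stimulation it was 1 to 2 when a library was left out. Changes of sign concerned values that had passed no test. The Cxcl3 response in Padi4 KO was 0.02 and became -0.039 with RLE factors, -0.26 with library size alone, -0.17 with DESeq2 and -1.99 to 2.01 when a library was left out. The Cxcl16 difference of response became 0.49 with DESeq2 and ranged from -1.77 to 1.15 without 1 library, and Ccl4 after R848 became 0.21 with library size alone and ranged from -0.29 to 0.063. Ranges without 1 library also spanned 0 for the difference of response of Ccl2 (-2.37 to 1.52), Ccl3 (-0.0198 to 0.59) and Ccl9 (-0.86 to 0.11), and for Padi4 KO against WT without stimulation of Cxcl2 (-0.21 to 0.28) and Ccl2 (-0.13 to 3.76).

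Replicate numbers did not pair the samples (correlations of the deviations -0.02 to 0.02). With the replicate number as a block, the Cxcl3 response in Padi4 KO was -0.048, the WT call of Cxcl3 was lost and no other member call changed.

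Over all tested genes, the calls for the difference of response numbered 575 in the fit reported, 125 with DESeq2 and 265 to 473 when a library was left out. Padi4 KO against WT gave 2936 calls without stimulation (DESeq2 1061, 1942 to 2807 when a library was left out) and 2118 after R848 (DESeq2 1008). The R848 response in Padi4 KO gave 2073 (DESeq2 1289). The scaling moved the share of calls that were higher. With library size alone it was 23.0% in place of 39.9% for the WT response, 23.2% in place of 47.8% for the Padi4 KO response, 60.0% in place of 73.2% for the difference of response, 77.2% in place of 39.8% for the genotypes without stimulation and 81.8% in place of 54.6% after R848. With RLE factors it was 40.7% for the difference of response and 42.1% for the genotypes after R848. With DESeq2 it was 53.0% for the WT response, 28% for the difference of response and 38.4% after R848. The median fold change (log2) over the 6912 genes moved from -0.07 to -0.38 in WT and from 0.08 to -0.30 in Padi4 KO with library size alone, and for the genotypes from -0.16 to 0.12 without stimulation and from 0.00 to 0.21 after R848. Levels per length moved by more than 1 SD for 6 of 34 group means with library totals and for 13 of 34 with the union of exons. The cause of these moves was not tested. Where a library was left out, the lone library of its group was assumed to vary like the other groups. Depth limits Cxcl1, Cxcl3, Cxcl16 and Ccl2, and the unstimulated levels of Cxcl10, Ccl3 and Ccl4, which rest on 9 counts or fewer in each group.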
